A study of Mus musculus with 2 samples.

Results

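The genes described here are the interleukins, chemokines and colony-stimulating factors of the mouse and the receptor chains that bind them. They were chosen by gene symbol alone, as every row of the deposited table whose symbol names a CC, CXC or CX3C chemokine, a numbered chemokine receptor, an interleukin, a colony-stimulating factor or a receptor of these, together with leukemia inhibitory factor (Lif), oncostatin M (Osm) and their receptors Lifr and Osmr. The rule found 149 genes among the 22156 rows of the table, of which 79 encode ligands, 65 receptor chains, 4 inhibitors or decoys and 1 an enzyme.

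The study asked which transcripts change in chondrocytes, the cells of cartilage, when Myl3 (myosin light chain 3) is deleted. RNA of cultured primary chondrocytes from newborn mice was sequenced in 1 library from control mice, whose genotype is given as WT, and in 1 library from Myl3-KO mice. By the study's methods the Myl3-KO mice were floxed Myl3 animals carrying a Cre driven by Col2a1, and the controls were floxed littermates, all on a C57BL/6J background. Both cultures are labelled as rib cartilage, were kept as a monolayer in serum-containing medium and received no treatment.

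Interleukins and chemokines are small secreted proteins that cells use to signal to each other. Chemokines act through receptors that cross the membrane many times and direct the migration of leukocytes. Most interleukins instead bring together a ligand-binding chain and a shared signaling chain, and a response usually needs both chains. In cartilage these proteins are best known from osteoarthritis and from senescent cells, in which IL-1, IL-6 and several chemokines accompany loss of the matrix.

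The deposited estimated counts, which are numbers of read fragments assigned to a gene, summed to 17612435 for control and 13477977 for Myl3-KO. The floor of detection was set at 3 counts, equal to 0.170 CPM (the count scaled to the library total) for control and 0.223 CPM for Myl3-KO. Myl3 itself had 0 counts in both libraries, so the deletion could not be checked from these data. The defining markers of cartilage were scarce in both libraries: of 9 chondrocyte markers 6 lay at or under the floor, Acan, Matn1, Matn3 and Hapln1 among them with 0 counts, Col2a1 had 30 and 27 counts, and Sox9 had 866 in control and 480 in Myl3-KO. The 7 fibroblast markers summed to 14799 and 16903 CPM, mostly from Col1a2, and moved unequally: 3 rose and 2 fell, Dcn from 631 to 155 counts and Lum from 272 to 81, both called lower. Their part in the results below was not tested. Leukocytes, the main source of many of the genes described here, left almost no reads. The macrophage and monocyte markers, 17 rows in all, summed to 4.54 CPM in control and 4.15 CPM in Myl3-KO, 11 of them were at 0 in both, and the pan-leukocyte gene Ptprc had 1 and 0 counts. Of the T and NK cell markers 5 were found and summed to 1 and 0 counts, the 3 B cell markers to 3 and 1, and the neutrophil and mast cell markers to 0 in both libraries. Endothelial markers summed to 7 and 12 counts, osteoclast markers to 13 and 14, and skeletal muscle markers to 5 and 1.

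Genes whose 2 counts summed to 10 or more were tested, by a binomial test (exact, two-sided) of the counts against the library totals, with Benjamini-Hochberg adjustment over all 12431 genes tested. A gene is said to have risen or fallen where its adjusted p was under 0.05, and is named as called where in addition its log2 ratio, Myl3-KO over control, was at least 1 in size. With 1 library per genotype the test compares the reads of these libraries and not the genotypes, there was no replicate check, and all intervals cover counting error only. In bulk RNA, fewer cells of a type and less RNA per cell cannot be told apart.

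Several of the results below turn on neighbouring CXC chemokine genes of chromosome 5, which encode the ligands that draw neutrophils, and on Il6. The bases just before the RefSeq start sites of 4 of these neighbours and of Il6 are shown because the first 3 genes hold the same stretch but very different counts, while Il6 was the one member called higher. They were chosen after the values were seen. All are plus-strand sequence of GRCm38.p6, end before the annotated gene, and carry in capitals each match to the NF-kappaB consensus, the binding sequence of the factor that IL-1 and tumor necrosis factor activate, searched on both strands. The windows are chr5:90785981-90786100 for Cxcl3, chr5:90891125-90891240 for Cxcl1, chr5:90903779-90903870 for Cxcl2, chr5:90794414-90794533 for Cxcl15 and chr5:30012994-30013113 for Il6.
Cxcl3: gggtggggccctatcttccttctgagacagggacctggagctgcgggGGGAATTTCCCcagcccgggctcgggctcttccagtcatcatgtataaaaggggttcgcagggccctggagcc
Cxcl1: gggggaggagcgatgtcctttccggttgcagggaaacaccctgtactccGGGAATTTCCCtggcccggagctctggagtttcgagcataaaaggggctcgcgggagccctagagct
Cxcl2: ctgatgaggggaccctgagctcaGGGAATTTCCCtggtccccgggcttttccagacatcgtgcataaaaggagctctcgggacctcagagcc
Cxcl15: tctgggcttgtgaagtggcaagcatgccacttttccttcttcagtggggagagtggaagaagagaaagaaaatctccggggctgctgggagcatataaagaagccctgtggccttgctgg
Il6: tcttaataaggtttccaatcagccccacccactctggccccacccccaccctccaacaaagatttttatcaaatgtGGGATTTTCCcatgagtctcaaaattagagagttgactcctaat

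In Cxcl3, Cxcl1 and Cxcl2 the capitals mark 2 overlapping matches, 1 on each strand, which together make the same run of bases in all 3 genes. Counted from the RefSeq start site, the run began at position -73 in Cxcl3, -71 in Cxcl1 and -97 in Cxcl2. In Cxcl1 and Cxcl2 that site lies inside the annotated gene, beyond the end of the window shown. The Il6 window held 1 match, which began at position -44, and the Cxcl15 window held none. RefSeq promoters were matched for 113 of the 149 genes, and Cxcl5, Ccl2 and Ccl7 were among the genes without one. In the 250 bases before the start site, 15 of 138 promoters of these genes (10.9%) held a match, against 1281 of 32851 promoters of all genes (3.90%). Among promoters of members with at least 100 counts 4 of 30 held one (13.3%), and among those of members at the floor 5 of 83 (6.02%). Promoters of members between these classes held the other matches, a higher share than in either class. Whether the share goes with read count was not tested. A match is a description of the letters and not a binding site, and the windows of related chemokine genes are not independent of each other.

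Most of the cytokine system was not detected. Of the 149 genes, 91 (61.1%) lay at or under 3 counts in both libraries, compared with 9149 rows (41.3%) of the whole table. Of these 91 genes, 62 had no read at all and 29 had 1 to 3 counts in at least 1 library. A count of 0 allows a level of up to the floor in that library. At the floor were 51 of 79 ligands (64.6%) and 37 of 65 receptor chains (56.9%).

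The undetected genes were spread unevenly over the families, as the bar chart of read counts by family shows. The chemokine receptors were almost empty, with 14 of 18 at the floor, among them Ccr2, Ccr7, Cxcr2 and Cxcr3, which leukocytes use to follow chemokine gradients. The IL-10 family had 9 of 11 genes at the floor, the IL-12 family 6 of 8, the CC chemokines 15 of 23, the IL-2 and IL-4 family 11 of 17 and the IL-1 family 12 of 20. The IL-17 family had 6 of 11 at the floor, the group of colony-stimulating factors with IL-3, IL-5 and IL-34 7 of 13, and the IL-6 family 6 of 12. The CXC and CX3C chemokines were the exception, with 4 of 14 at the floor, namely Cxcl9, Cxcl14, Cxcl15 and Cxcl17. Another 7 genes had more than 3 counts in a library but too few to test: Il17rb had 4 and 5 counts, Ccl9 had 4 and 4, Ccr10 had 4 and 3, Il1r2 had 5 and 1, Ccl28 had 5 and 0, Cxcl13 had 4 and 0, and Ccrl2 had 0 and 7. The remaining 51 genes were tested.

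**Figure D1:**
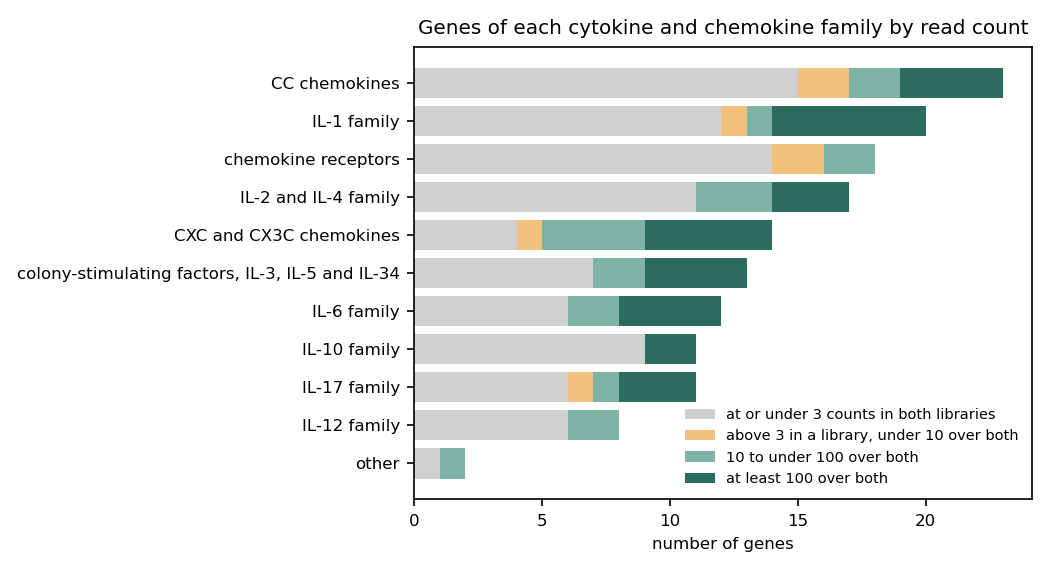
Number of genes (horizontal axis) in each cytokine and chemokine family, split by read count in the 2 libraries into the 4 classes of the key. Grey bars, the genes at or under 3 counts in both libraries, take 14 of the 18 chemokine receptors but 4 of the 14 CXC and CX3C chemokines.

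Reads were concentrated in few genes. The 149 genes summed to 1470 CPM in control and 1631 CPM in Myl3-KO, and 2 of them, the chemokine Cxcl12 and the shared receptor chain Il6st, held 51.7% of those reads in control and 46.9% in Myl3-KO. Over both libraries 31 genes reached 100 counts. In FPKM, the deposited level per kilobase of transcript that allows genes of different length to be compared, 31 genes reached 1 in both libraries and 14 reached 10, as the plot of FPKM by gene shows.

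**Figure D2:**
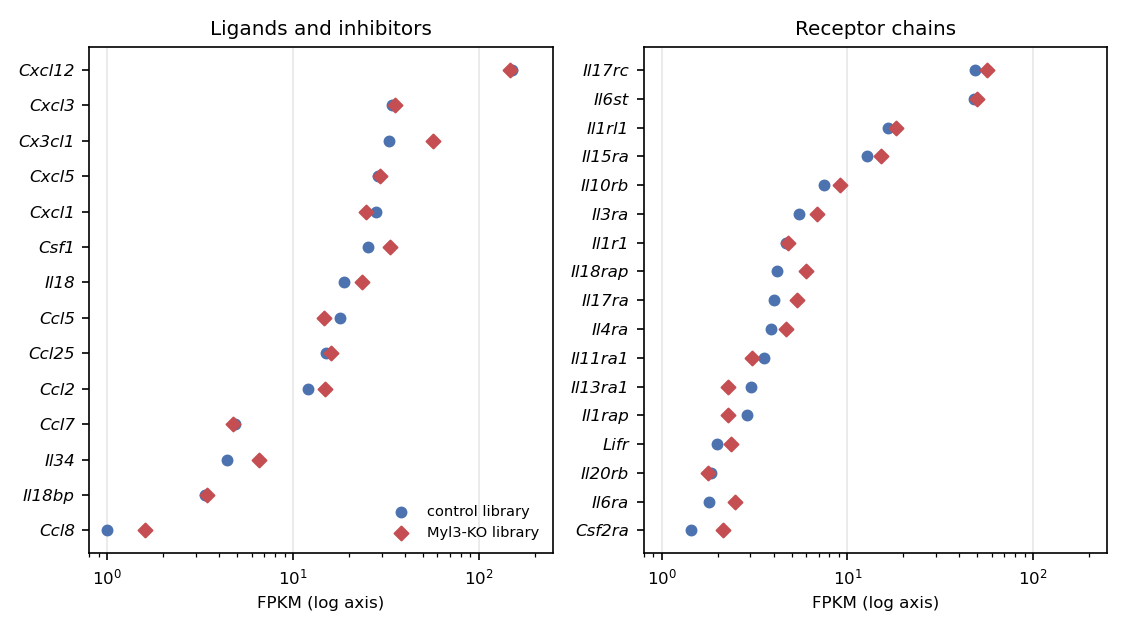
Deposited FPKM (log axis) of the 31 genes at or above 1 FPKM in both libraries, ligands and inhibitors on the left and receptor chains on the right, with circles for the control library and diamonds for the Myl3-KO library. Cxcl12 stands above all others near 150 FPKM, and Cx3cl1 shows the widest gap between libraries among the ligands above 10 FPKM, from 32.8 to 56.4.

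Among the 51 tested genes 33 had a ratio above 0 and 18 below. The adjusted p was under 0.05 for 11 genes that were higher (21.6%) and for 2 that were lower (3.92%), beside 18.6% of all tested genes higher and 16.8% lower. Called were 1 gene higher, Il6, and 1 lower, Cxcr4, beside 1.15% of all tested genes called higher and 0.394% called lower. The median log2 ratio of the 51 genes was 0.16, compared with 0.02 over all genes tested. Of the 31 members with at least 100 counts, 22 (71.0%) had a ratio above 0, compared with 51.5% of the 10485 genes at that depth, and their median was 0.20 against 0.01. Among all tested genes, the share of members that rose was thus near that of all genes, whereas the share that fell was below it. These shares compare unlike depths, since 31 of 51 members but 10485 of 12431 tested genes reached 100 counts. No test was made of either difference.

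**Figure D3:**
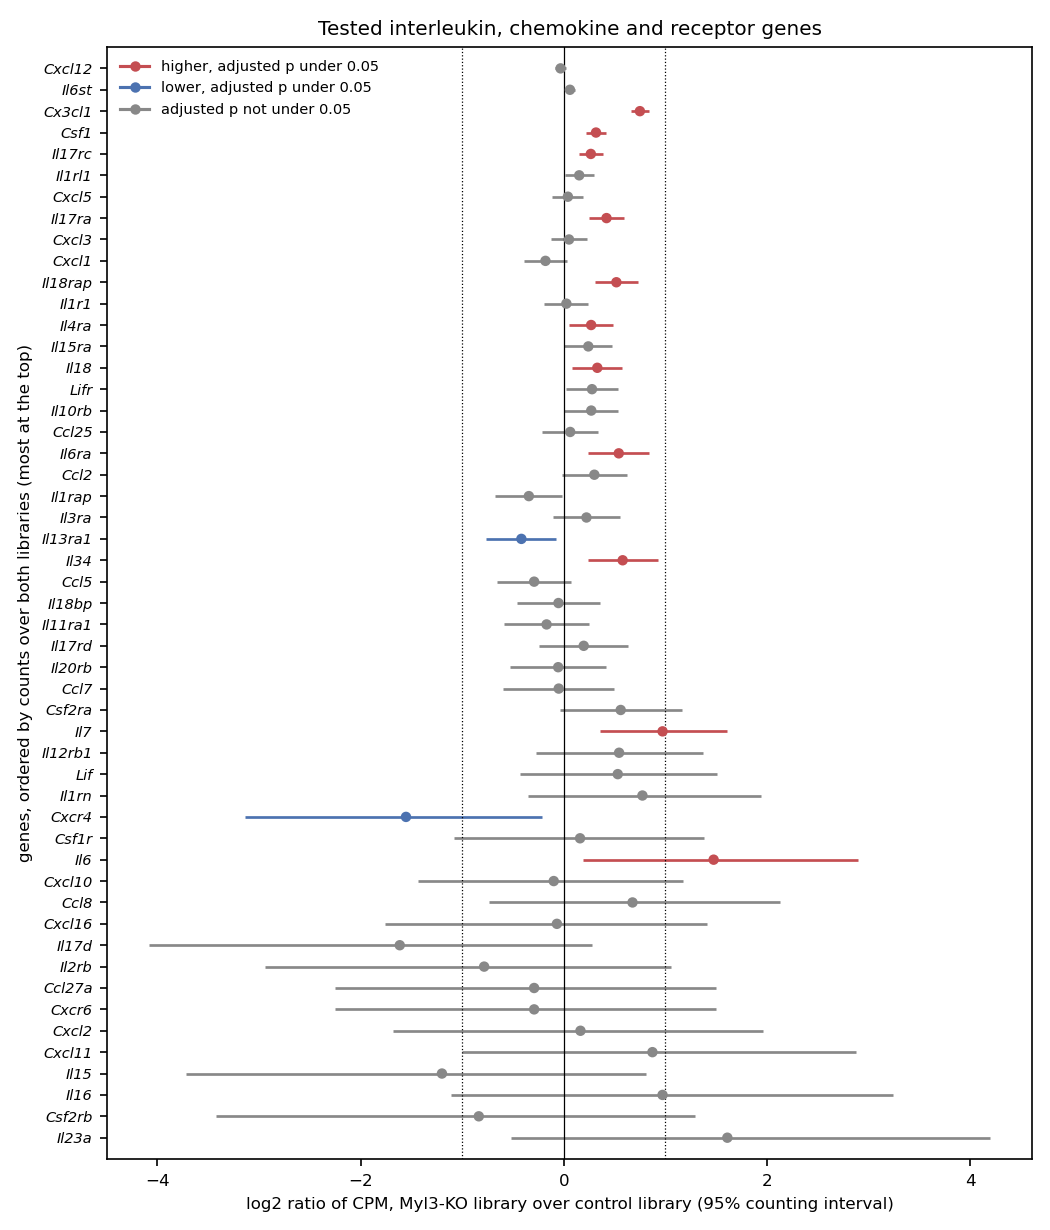
Log2 ratio of CPM, Myl3-KO library over control library, with its 95% counting interval for the 51 tested genes, ordered from the most counts at the top to the fewest at the bottom. Red marks the 11 genes that rose, blue the 2 that fell (Il13ra1 and Cxcr4) and grey the other 38, dotted lines stand at log2 ratios of -1 and 1, and intervals widen towards the bottom where counts are few.

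Of the 15 chemokine ligands tested 1 rose, Cx3cl1, and 0 fell. Cxcl12, the ligand that keeps stem and progenitor cells in their niche, had 7184 counts in control and 5376 in Myl3-KO, which at 151 and 148 FPKM made it the highest of all members. Its log2 ratio was -0.03 (95% interval -0.08 to 0.02). Cx3cl1 (fractalkine), a chemokine tethered to the membrane by a stalk, had 1713 counts in control and 2202 in Myl3-KO, although the latter was the shallower. It rose from 32.8 to 56.4 FPKM, with a log2 ratio of 0.75 (0.66 to 0.84; exact binomial test, adjusted p = 1.69e-56), and was the member with the smallest adjusted p. It lies at chr8:94772009-94782427 on the plus strand between Ccl22, with 2 and 2 counts, and Ccl17, with 2 and 3 counts, so its neighbours were at the floor in both libraries.

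Of the neutrophil-attracting CXC chemokines, 3 were abundant and none passed the test. Cxcl5 had 797 and 627 counts in the control and Myl3-KO library, with a log2 ratio of 0.04 (-0.11 to 0.19). Cxcl3 had 613 and 486 counts, with a log2 ratio of 0.05 (-0.12 to 0.23). Cxcl1 had 471 and 318 counts, with a log2 ratio of -0.18 (-0.39 to 0.03; exact binomial test, adjusted p = 0.177). Summed, the 3 genes had 1881 and 1431 counts and a log2 ratio of -0.01 (-0.11 to 0.09). Their levels were alike, between 24.8 and 35.5 FPKM. Cxcl2, which carries the same run of bases before its start site as Cxcl3 and Cxcl1, stood far below them with 7 and 6 counts, and Cxcl3 exceeded it 107-fold in FPKM in control and 88.7-fold in Myl3-KO. Cxcl2 shares 7.59% of its 31-base words with other genes, Cxcl3 among them, so a small part of its reads could be assigned to either. Cxcl15, which lies between Cxcl3 and Cxcl1, had 3 and 0 counts.

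The interferon-induced chemokines farther along chromosome 5 were scarce. Cxcl10 had 14 and 10 counts and Cxcl11 had 5 and 7, both without passing the test, and their neighbour Cxcl9 had 0 in both libraries. Cxcl11, counted among the ligands here, is annotated as a polymorphic pseudogene. Cxcl16, a membrane-bound chemokine, had 9.59 and 7 estimated counts and overlaps Zmynd15, so that its few reads may not be its own.

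The CC chemokines were dominated by 4 genes, none of which passed the test. Ccl2, the main attractant of monocytes, had 173 and 163 counts, with a log2 ratio of 0.30 (-0.02 to 0.62; exact binomial test, adjusted p = 0.137). Its neighbour Ccl7, a related monocyte attractant, had 69 and 51 counts, with a log2 ratio of -0.05 (-0.60 to 0.49). Ccl5, which attracts T cells and monocytes, had 168 and 105 counts, with a log2 ratio of -0.29 (-0.66 to 0.07). Ccl25, the thymus and gut chemokine, had 249 and 199 counts, but an exon of Elavl1 overlaps it on the opposite strand, and since the strand setting of the counting was not given these reads cannot be assigned to Ccl25 with certainty. Ccl8 had 9 and 11 counts. Ccl27a had 8 and 5 counts and shares 57.0% of its 31-base words with other genes. Within the row of CC chemokine genes on chromosome 11, detection was patchy, with 6 of 11 genes at the floor. Ccl11 and Ccl12, which lie between Ccl7 and Ccl8, had no reads, nor had Ccl3 and Ccl4, which lie beyond Ccl5, as the plot of counts in gene order shows.

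**Figure D4:**
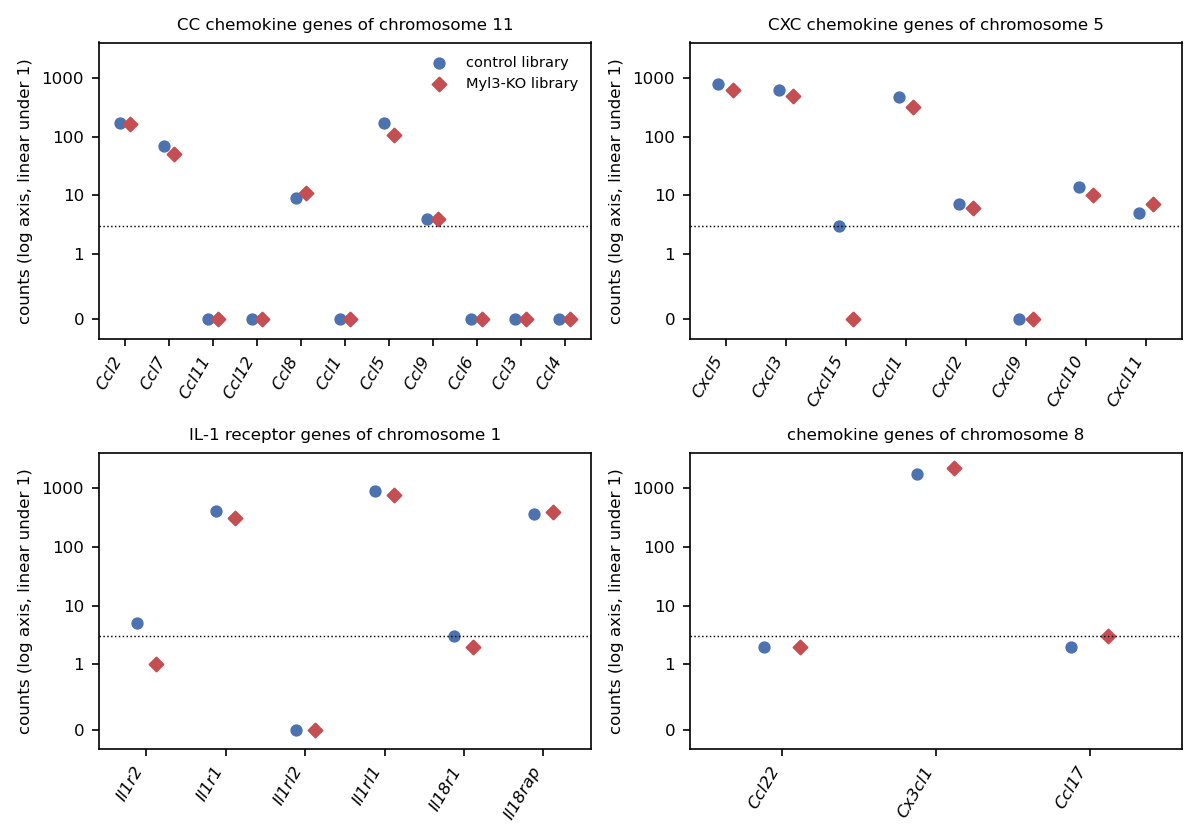
Counts (log axis, linear under 1) of the genes in 4 chromosomal neighbourhoods, in the order in which they lie on the chromosome, with circles for the control library, diamonds for the Myl3-KO library and a dotted line at 3 counts. Abundant genes such as Cxcl5, Il1rl1 and Cx3cl1 stand next to genes at or under the line, and the same genes are abundant in both libraries.

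Receptors for these chemokines left few reads. Cxcr4, the receptor of Cxcl12, was the most abundant of the 18 chemokine receptors and the one that fell, from 23 counts in the control library to 6 in the Myl3-KO library. That is 1.18 and 0.37 FPKM, a log2 ratio of -1.55 (-3.14 to -0.22; exact binomial test, adjusted p = 0.0417). The other receptor of Cxcl12, the scavenger Ackr3, whose name lies outside the rule, had 123 and 106 counts and a log2 ratio of 0.17 that did not pass the test. Cxcr6, the receptor of Cxcl16, had 8 and 5 counts. Receptor genes of other abundant chemokines were at the floor. Cx3cr1, the receptor of Cx3cl1, Cxcr2, that of the neutrophil attractants, and Ccr2, that of Ccl2 and Ccl7, all had 0 counts in both libraries, and Ccr9, that of Ccl25, had 3 and 0. Ccrl2, a receptor-like gene that binds chemoattractants, had reads only in Myl3-KO, with 0 counts in control and 7 there. With the control count raised to the floor of 3 the ratio was 3.05-fold. The 95% counting interval began at a log2 ratio of 0.91, and Ccrl2 had too few reads for the test.

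The growth factors of macrophages rose. Csf1, which sustains macrophages and their precursors, had 1722 counts in control and 1641 in Myl3-KO, or 25.2 and 33.2 FPKM, a log2 ratio of 0.32 (0.22 to 0.41; exact binomial test, adjusted p = 3.71e-09). Il34, the other ligand of the same receptor, had 133 and 152 counts, a log2 ratio of 0.58 (0.23 to 0.93; exact binomial test, adjusted p = 0.00362). Their receptor Csf1r had 14.0 and 12 estimated counts with an exon of Hmgxb3 overlapping it, and its log2 ratio of 0.16 did not pass the test. Csf2 and Csf3, which drive granulocyte formation, were at the floor with 0 and 1 and with 1 and 0 counts. The receptor side of this group was present without its shared chain: Il3ra had 168 and 150 counts and Csf2ra 47 and 53, neither past the test, while the common chain Csf2rb, 19.7% of whose 31-base words occur in other genes, had 7 and 3.

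In the IL-1 family Il18 and the receptor chains Il1r1, Il1rap, Il1rl1 and Il18rap were detected and the IL-1 ligands were not. Another 4 of the 9 receptor chains of the family were at the floor. Il1a had 2 and 1 counts and Il1b had 0 in both libraries. The IL-1 receptor Il1r1 had 402 and 313 counts, with a log2 ratio of 0.02 (-0.19 to 0.24). Its accessory chain Il1rap had 209 and 126 counts, with a log2 ratio of -0.34 (-0.67 to -0.02) whose adjusted p of 0.0901 in the exact binomial test missed the threshold. The antagonist Il1rn had 13 and 17 counts, and the decoy receptor Il1r2 had 5 and 1. Il1rl1, the receptor of IL-33, was the most abundant receptor of the family in FPKM (16.5 and 18.2), with 899 and 764 counts, whereas Il33 itself had 3 and 1. The log2 ratio of Il1rl1 was 0.15 (0.01 to 0.29; exact binomial test, adjusted p = 0.0845), and the counts do not separate its membrane-bound from its soluble form.

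Il18, the interferon-inducing member of the family, rose from 285 counts in the control library to 274 in the smaller Myl3-KO library, or from 18.8 to 23.5 FPKM, a log2 ratio of 0.33 (0.08 to 0.57; exact binomial test, adjusted p = 0.0236). Il18rap, the accessory chain of its receptor, rose as well, from 358 to 392 counts and from 4.16 to 5.95 FPKM, a log2 ratio of 0.52 (0.31 to 0.73; exact binomial test, adjusted p = 9.81e-06). The ligand-binding chain Il18r1, which lies next to Il18rap on chromosome 1, had 3 and 2 counts. Reads of the accessory chain were thus found with those of its partner at the floor in both libraries. The soluble inhibitor Il18bp had 122 and 90 counts, overlaps an exon of Numa1, and had a log2 ratio of -0.05 that did not pass the test and was 0.04 in FPKM.

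In the IL-6 family both receptor chains of IL-6 were detected and the ligands were scarce. Il6 had 8 counts in control and 17 in Myl3-KO, or 0.25 and 0.84 FPKM, a log2 ratio of 1.47 (0.18 to 2.89; exact binomial test, p = 0.0151, adjusted p = 0.0437). It was the only member called higher, and it rests on 25 reads over both libraries. Without the filter on low counts it no longer passed (exact binomial test, adjusted p = 0.0523). Its receptor chain Il6ra had 177 and 197 counts and rose by a log2 ratio of 0.54 (0.24 to 0.84; exact binomial test, adjusted p = 0.00160). The signal-transducing chain Il6st (gp130), which IL-6, IL-11, LIF and oncostatin M share, had 6190 and 4938 counts, and its log2 ratio of 0.06 (0.01 to 0.11) had an adjusted p of 0.0774 in the exact binomial test. Il6st stood at 47.8 and 49.8 FPKM, far above Il6ra at 1.80 and 2.47 and Lifr at 1.98 and 2.37. Lifr, the partner chain for leukemia inhibitory factor, had 275 and 255 counts (log2 ratio 0.28, 0.03 to 0.53), which did not pass the test after adjustment, and its ligand Lif had 19 and 21. Il11ra1 had 122 and 83 counts, but 57.7% of its 31-base words occur in other genes, and Il11 had 2 and 3. Osm had 0 counts in both libraries and its receptor Osmr had 2 and 1.

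Both chains of the IL-17 receptor rose, and its ligands IL-17A and IL-17F were at the floor. Il17rc, the ligand-binding partner chain, had 1172 and 1078 counts, or 48.8 and 56.5 FPKM, and a log2 ratio of 0.27 (0.14 to 0.39; exact binomial test, adjusted p = 1.01e-04). Il17ra, the chain shared by the family, had 549 and 562 counts, or 4.02 and 5.38 FPKM, and a log2 ratio of 0.42 (0.25 to 0.59; exact binomial test, adjusted p = 1.26e-05). In FPKM Il17rc exceeded Il17ra 12.1-fold in control and 10.5-fold in Myl3-KO. Il17a had 0 counts in both libraries and Il17f had 3 and 1. Il17d, a ligand made outside the immune system, had 12 and 3 counts, and its log2 ratio of -1.61 (-4.08 to 0.28) did not pass the test. Il17rd, a chain that also restrains fibroblast growth factor signals, had 97 and 85 counts.

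Among the IL-2 and IL-4 relatives, chains of the same receptor went in opposite directions. Il4ra, which binds IL-4, had 358 and 330 counts and rose by a log2 ratio of 0.27 (0.05 to 0.49; exact binomial test, adjusted p = 0.0444), a result lost when the libraries were scaled by TMM (adjusted p = 0.0627) or by DESeq2 size factors (adjusted p = 0.0625). Il13ra1, with which Il4ra forms the receptor of nonhematopoietic cells for IL-4 and IL-13, had 199 and 114 counts and fell, with a log2 ratio of -0.42 (-0.76 to -0.08; exact binomial test, adjusted p = 0.0413). Il7, a growth factor of lymphocytes made by stromal cells, rose from 38 counts in control to 57 in Myl3-KO, at a log2 ratio of 0.97 (0.35 to 1.60; exact binomial test, adjusted p = 0.00538), just under the size needed to be called. Il15ra, which presents IL-15 to other cells, had 313 and 283 counts and a log2 ratio of 0.24 (0.00 to 0.48) that did not pass the test, while Il15 had 9 and 3 counts and Il2rb 9 and 4. The common gamma chain Il2rg, without which the lymphocyte receptors of IL-2, IL-4, IL-7 and IL-15 do not signal, and Il7r had no reads in either library.

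The last receptors and ligands were few. Il10rb, the chain shared by IL-10, IL-22 and the type III interferons, had 245 and 226 counts, with a log2 ratio of 0.27 (0.00 to 0.54) that did not pass the test, and it shares 14.8% of its 31-base words with other genes. Il20rb, a receptor chain for IL-20 relatives, had 91 and 67 counts. Il12rb1, the chain shared by IL-12 and IL-23, had 26 and 29 counts, and Il23a, the specific subunit of IL-23, had 3 and 7, a log2 ratio of 1.61 (-0.52 to 4.19) that did not pass the test. Il16, a chemoattractant that overlaps Stard5, had 4 and 6 counts.

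Of 22 secreted factors known from senescent or osteoarthritic cells, 9 were at the floor in both libraries (Il1a, Il1b, Il11, Il17a, Ccl3, Ccl20, Csf2, Csf3 and Osm). Of the 13 tested, 3 rose (Csf1, Il18 and Il6, 23.1%, beside 18.6% of all tested genes) and 0 fell in the exact binomial test, with Cxcl12, Cxcl5, Cxcl1, Ccl2, Ccl5 and Ccl7 among those that did not pass it. Their median log2 ratio was 0.16. This median and that of all 51 tested members were both the value of Cxcl2, with 7 and 6 counts, so they are not independent.

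The signaling genes downstream of these receptors were detected far more completely than the ligands. Of 24 genes of gp130 and JAK-STAT signaling 20 were tested, of which 11 rose (55%) and 1 fell (5%), beside 18.6% and 16.8% of all tested genes, with a median log2 ratio of 0.22 beside 0.02 over all genes. The most abundant were the phosphatase Ptpn11 with 6963 and 5229 counts, the kinase Jak1 with 3585 and 2828, neither past the test, and the transcription factor Stat3 with 2235 and 1879 (log2 ratio 0.14; exact binomial test, adjusted p = 0.0107). Called higher were Stat5a, a transcription factor of cytokine receptors, with 38.2 and 71.3 estimated counts and a log2 ratio of 1.29 (exact binomial test, adjusted p = 4.87e-05), and Socs2, a feedback inhibitor of growth hormone and cytokine signals, with 40 and 65 counts and a log2 ratio of 1.09 (exact binomial test, adjusted p = 8.92e-04). Stat5a reads can be shared with its paralog Stat5b, and in the deposited FPKM the log2 ratio of Socs2 was 0.40.

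Of 27 genes of IL-1 and NF-kappaB signaling 24 were tested, of which 8 rose (33.3%), 1 fell (4.17%) and 0 were called, with a median log2 ratio of 0.13. Of all tested genes 18.6% rose and 16.8% fell. Its most abundant genes were Tab2 with 3236 and 2421 counts and Map3k7 with 2102 and 1583, neither past the test, and Ikbkg with 2968 and 2480 (log2 ratio 0.13; exact binomial test, adjusted p = 0.00541). Of 27 tumor necrosis factor and other cytokine receptor genes 14 were tested, of which 3 rose (21.4%, near the share of all genes), 1 fell (7.14%) and 0 were called, with a median log2 ratio of 0.01. The most abundant there were Tnfrsf1a with 2044 and 1617 counts and Ltbr with 1500 and 1139, neither past the test, and Ifnar1, which rose from 1624 to 1510 counts in the smaller library (log2 ratio 0.28; exact binomial test, adjusted p = 6.50e-07). Of 11 chemokine scavengers and receptors outside the symbol rule 5 were tested and 0 passed. Their median log2 ratio of 0.97 was the value of Ackr4 and Cmklr1, each with only 4 and 6 counts. The most abundant were Ackr3 (log2 ratio 0.17), Pitpnm3 with 23 and 19 counts (0.11) and the receptor Xcr1 with 12 and 19 (1.05).

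Effector genes of inflammation did not follow a single direction. Of 22 genes 14 were tested, of which 3 rose (21.4%), 2 fell (14.3%) and 0 were called, both shares near those of all genes (18.6% and 16.8%), with a median log2 ratio of 0.29. Timp1, the inhibitor of matrix metalloproteinases, fell from 2310 to 1447 counts (log2 ratio -0.29; exact binomial test, adjusted p = 2.87e-08), the adhesion molecule Selp rose from 523 to 587 (log2 ratio 0.55; exact binomial test, adjusted p = 3.51e-09), and the aggrecanase Adamts5 had 641 and 531 without passing the test. The collagenase Mmp13 had 2 and 4 counts.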

How the data were processed

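RNA from 1 control and 1 Myl3-KO chondrocyte culture was compared. The authors deposited estimated counts per gene (expected counts, not normalized), of which 4 members have values that are not whole, and FPKM values per gene, normalized by the authors for gene length and library size. The submitters' processing notes name GRCm38 (mm10), and the aligner, the counter and its strand setting are not given in the sources used here. The columns headed NC and KO were read as the control and Myl3-KO samples. No sample column was left unused (0 columns).

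Counts were divided by library totals. For ratios, counts under 3 were raised to 3. Genes whose counts summed to 10 or more were tested by the exact binomial test (scipy 1.17.1, Python 3.11.15) on rounded counts, with Benjamini-Hochberg adjustment and Clopper-Pearson 95% intervals. The script was tested on simulated data. No model with replicates could be fitted, since each genotype has 1 library. Alternatives were TMM scaling and the exact test of edgeR 4.0.16 at an assumed coefficient of variation of 0.2 or 0.4, size factors of DESeq2 1.42.0, FPKM ratios and other filters. Positions are from GENCODE M21 and promoters from RefSeq (GRCm38.p6).

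Members, lists and tests were chosen with earlier results of these data known. Named were all tested members, the listed senescence factors, and of each pathway list the called genes and the 3 with most counts. Further genes, such as the untested members, partner chains of named receptors, Cx3cr1, Ackr3 and Mmp13, and the chromosomal neighbourhoods were chosen after values were seen. Protein sequences planned for display were not used here.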

Additional observations from a re-analysis of the deposited data

How the results depend on the processing

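Each genotype has 1 library, so no replicate could be left out. No paired analysis was possible because each genotype has 1 library. Under TMM scaling and DESeq2 size factors, 50 of the 51 tested genes kept their direction and side of the threshold, the exception being Il4ra, and with 1 count added all 51 kept their direction. FPKM ratios, which carry no test, kept the direction of 50, and Il18bp turned to 0.04. The number of members called, 2, became 0 with at least 10 counts required in each library, since Il6 and Cxcr4 were then not tested. It became 0 at a log2 limit of 2, and 7 at a limit of 0.5, and with FPKM ratios it was 3, Il7 being added. The edgeR exact test, given an assumed coefficient of variation between replicates, called 0 members at 0.2 and 0 at 0.4. There the members with adjusted p under 0.05 went from 13 to 0 at 0.2 and 0 at 0.4, with 0 at an unadjusted p under 0.05 in either case, and of all genes 4 passed at 0.2 and 1 at 0.4. If cultures vary by such amounts, none of the differences between these libraries among the members would pass. The genes called in the gp130 and JAK-STAT list went from 2 to 0 at 0.2 and 0 at 0.4, and to 1 with FPKM ratios, where Socs2 fell short. The median log2 ratio of the members, 0.16, became 0.19 with 1 count added, 0.21 with FPKM ratios, 0.22 with at least 10 counts in each library and 0.39 without a filter, where genes under the floor take the ratio of the library totals. The cause of the other shifts was not tested. Without the filter, Il6 had an adjusted p of 0.0523 and was no longer called, while Ccrl2, with 0 and 7 counts, was (adjusted p = 0.0132). Depth limits the tested members with under 100 counts, 20 of 51, whose intervals spanned a median of 3.41 on the log2 scale, against 0.50 for the other 31.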
